A study of Mus musculus with 18 samples.

Results

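The genes described here are 8 genes of heat production that does not run through the uncoupling protein UCP1: *Gatm*, *Gamt*, *Slc6a8*, *Ckb*, *Ckmt1* and *Ckmt2* of creatine metabolism, *Atp2a2* of calcium cycling, and *Pm20d1*. They were taken by symbol from the 52093 gene symbols of the deposited tables, with the row of highest mean level where a symbol had several rows. RNA was sequenced from inguinal white (iWAT) adipocytes, epididymal white (eWAT) adipocytes and brown adipose tissue (BAT), with 6 libraries in each group. All mice were wild type males, given as C57BL/6 in the strain field, C57BL/6J in the extraction protocol and C57BL/6NTac in the study's text, that had been kept on high-fat food (HFD) over 12 weeks according to the titles and the extraction protocol, whereas the treatment field of the labels names regular chow; the labels give no age, and statements in the study's text differ. No animal carried a transgene or received a drug, so neither differed between the groups. The white depots were digested with collagenase and the floating adipocyte layer was used, whereas BAT was frozen whole although its label reads BAT adipocytes. BAT was sequenced on lanes 3 and 4 and the white depots on lanes 1 and 2, so depot, isolation and lane cannot be told apart in any comparison with BAT. The titles carry a number, read here as the mouse number, and 4 of the 6 numbers in BAT recur in both white depots, which share all 6; the labels do not state that libraries with the same number came from 1 mouse.

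In the creatine cycle, cells make creatine from arginine and glycine or import it, creatine kinase moves phosphate from ATP to creatine, and a futile round of phosphorylation and dephosphorylation releases heat. In the calcium cycle, the SERCA pump returns calcium to the endoplasmic reticulum at the cost of ATP while release channels let it out again. PM20D1 is a secreted enzyme that joins and splits fatty acids and amino acids, and its N-acyl amino acid products can uncouple mitochondria. All of these routes have been described in brown or beige fat, and creatine kinase, the creatine transporter and SERCA are also used by many other cell types.

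The promoters below are the 250 bases before the annotated start of *Ckb* and *Gatm*, which were highest in eWAT adipocytes, of *Gamt*, which was not, and of *Ckmt2*, which varied among the BAT libraries. They come from RefSeq on GRCm38.p6, where they lie on the minus strand at chr12:111672339-111672588 for *Ckb*, chr2:122611278-122611527 for *Gatm*, chr10:80261013-80261262 for *Gamt* and chr13:91876886-91877135 for *Ckmt2*. The deposited tables use mm9, and each sequence matched its mm9 chromosome at 1 place. Each is printed 5′ to 3′ as transcribed, with capitals for letters found by a search of both strands. The search looked for the TATA box written as TATAAA, the core CCAAT, the GC box written as GGGCGG, the E-box written as CANNTG, the nuclear receptor core AGGTCA, the cyclic AMP element written as TGACGTCA and the PU.1 core written as GAGGAAGT. No 2 matches overlapped in these windows.

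Ckb promoter: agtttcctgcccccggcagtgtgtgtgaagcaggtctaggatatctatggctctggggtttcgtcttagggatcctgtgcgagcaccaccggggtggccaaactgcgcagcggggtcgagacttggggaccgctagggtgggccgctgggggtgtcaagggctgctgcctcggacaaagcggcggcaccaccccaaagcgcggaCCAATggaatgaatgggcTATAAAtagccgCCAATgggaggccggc

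Gatm promoter: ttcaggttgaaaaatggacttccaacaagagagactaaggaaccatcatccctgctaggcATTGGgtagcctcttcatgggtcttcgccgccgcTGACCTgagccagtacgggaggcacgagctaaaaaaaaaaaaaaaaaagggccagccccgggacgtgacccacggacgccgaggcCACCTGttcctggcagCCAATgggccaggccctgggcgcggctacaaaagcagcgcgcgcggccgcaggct

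Gamt promoter: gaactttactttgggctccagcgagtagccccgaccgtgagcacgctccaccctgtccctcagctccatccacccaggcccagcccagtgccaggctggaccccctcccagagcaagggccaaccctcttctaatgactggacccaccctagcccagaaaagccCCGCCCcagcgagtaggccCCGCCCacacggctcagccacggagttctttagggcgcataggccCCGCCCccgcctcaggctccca

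Ckmt2 promoter: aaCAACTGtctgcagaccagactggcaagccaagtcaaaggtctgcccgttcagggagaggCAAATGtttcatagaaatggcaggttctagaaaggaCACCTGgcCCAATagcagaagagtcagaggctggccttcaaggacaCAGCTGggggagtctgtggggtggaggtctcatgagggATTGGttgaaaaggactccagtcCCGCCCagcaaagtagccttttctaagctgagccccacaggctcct

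The *Ckb* window held TATAAA from -28 to -23 relative to the start and 2 copies of CCAAT, whose positions were -46 to -42 and -16 to -12. Among 32851 promoter windows of the same length, 12.4% held TATAAA and 33.8% held CCAAT. The *Gatm* window held 2 CCAAT copies, 1 CANNTG and 1 AGGTCA. The *Gamt* window held 3 copies of GGGCGG and no other searched motif, and the *Ckmt2* window held 4 copies of CANNTG, the E-box, together with 2 CCAAT copies and 1 GGGCGG. Of all windows, 66.2% held CANNTG, 32.7% GGGCGG and 14% AGGTCA. The cyclic AMP element and the PU.1 core, held by 1.55% and 2.44% of all windows, had no match in these 4 windows. The motif matches describe the letters only. *Slc6a8*, *Atp2a2* and *Pm20d1* have no promoter printed here.

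The libraries held between 24655056 and 42518483 reads on annotated rows. The share of mitochondrially encoded rows was 2.27% to 7.03% in the white depots and 18.1% to 24.6% in BAT. The library size behind the RPKM values differed from these read totals, so the share depends on the total used. In BAT of mouse 16 that size was 22935346, against 27402247 reads on rows. Brown adipocyte markers summed to 2942 to 4309 RPKM in BAT, against 32.6 to 51.0 in iWAT adipocytes and 6.73 to 18.3 in eWAT adipocytes. The 6 macrophage markers summed to 24.5 to 48.4 RPKM in BAT, whereas the sum was 452 to 891 in iWAT and 2564 to 4134 in eWAT adipocytes, and every marker of the list had reads in each group. Within eWAT, mice 1 and 3 had the lowest *Adipoq* (adiponectin) levels, 199 and 150 RPKM, and the highest levels of *Cd68*, a macrophage lysosomal protein, 680 and 681 RPKM. In BAT, *Acta1*, the actin of skeletal muscle, was 0.806 RPKM in mouse 2 and 6.995 in mouse 17 but 27.9 to 45.8 in the other 4 mice. In such bulk RNA, fewer cells of a type and less RNA per cell cannot be told apart. RPKM is a read count divided by the length of the annotated row and by the size of the library.

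*Gatm* encodes the mitochondrial enzyme that makes guanidinoacetate, the precursor of creatine. Its level ran from 2.19 through a median of 3.47 to 4.16 RPKM in iWAT adipocytes. In eWAT adipocytes it ran from 12.0 (median 12.6) to 17.7 RPKM, and in BAT from 0.319 (median 0.682) to 0.940 RPKM. The 3 groups did not overlap, with eWAT adipocytes on top and BAT at the bottom. *Gamt* encodes the methyltransferase that turns guanidinoacetate into creatine. It had 13.7, 15.1 and 17.05 RPKM as lowest, median and highest value in iWAT adipocytes. In eWAT adipocytes these values were 8.24, 11.9 and 13.05 RPKM, and in BAT 1.71, 2.00 and 2.34 RPKM. Its order therefore differed from that of *Gatm*, with iWAT adipocytes on top, although the white depots overlapped once the levels were scaled by the trimmed mean of M values (TMM). The level of *Gatm* per 100 RPKM of *Gamt* averaged 126 ± 36.7 RPKM in eWAT adipocytes (SD, n = 6), 22.3 ± 6.71 in iWAT adipocytes and 31.9 ± 13.9 in BAT. The eWAT libraries of mice 1 and 3 had 158 and 184, and without them the eWAT mean was 103 ± 11.0 (SD, n = 4), with values from 92.9 to 118. In BAT the ratio was 55.1 in mouse 2 and 37.4 in mouse 17, above the 14.3 to 31.7 of the other 4 mice.

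*Slc6a8* encodes the creatine transporter of the cell membrane. Its level was 6.05, 9.14 and 10.9 RPKM (lowest, median, highest) in iWAT adipocytes, 24.8, 29.3 and 37.7 in eWAT adipocytes, and 3.19, 3.64 and 4.25 in BAT. The groups did not overlap in RPKM, but iWAT adipocytes and BAT overlapped after TMM scaling. *Ckb*, the brain-type cytosolic creatine kinase, was the most abundant of the 8 genes in both white depots. It ran from 15.5 (median 21.5) to 23.8 RPKM in iWAT adipocytes, from 73.5 (median 101) to 143 RPKM in eWAT adipocytes, and from 5.03 (median 7.37) to 9.46 RPKM in BAT. The groups did not overlap on either scale, with means of 20.4 ± 3.05, 108 ± 27.1 and 7.28 ± 1.61 RPKM (SD, n = 6 each).

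The mitochondrial creatine kinases were scarce. *Ckmt1*, the ubiquitous form, had 0 to 2 reads in every library, with totals of 4 reads in BAT, 3 in eWAT adipocytes and 1 in iWAT adipocytes, so no difference was detectable at this depth. A count of 0 allows up to 3 reads, which is 0.0292 to 0.0524 RPKM for this gene depending on the library, and covers counting error only. *Ckmt2*, the form of striated muscle, had 4 to 10 reads per library in iWAT adipocytes and 1 to 6 in eWAT adipocytes. In BAT its reads numbered 101 in mouse 1, 3 in mouse 2, 93 in mouse 5, 77 in mouse 16, 3 in mouse 17 and 37 in mouse 18. These correspond to 0.800, 0.0203, 0.995, 0.878, 0.0221 and 0.284 RPKM, so that 2 BAT libraries lay inside the range of the white depots and 4 lay above it.

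*Atp2a2* encodes SERCA2, the calcium pump found in most tissues. Its level was 11.7, 12.3 and 13.9 RPKM in iWAT adipocytes (lowest, median, highest), 12.5, 13.6 and 14.4 in eWAT adipocytes, and 11.5, 14.8 and 19.2 in BAT. In RPKM the 3 groups overlapped. After TMM scaling the BAT libraries ran from 16.8 to 26.6 and lay above both white depots, which ran from 10.0 to 10.9 and from 10.2 to 11.6. *Pm20d1* had 0.526, 0.677 and 0.786 RPKM in iWAT adipocytes, 0.161, 0.485 and 0.681 in eWAT adipocytes, and 2.40, 2.89 and 2.998 in BAT. BAT was above every white library, and the white depots overlapped.

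**Figure D1:**
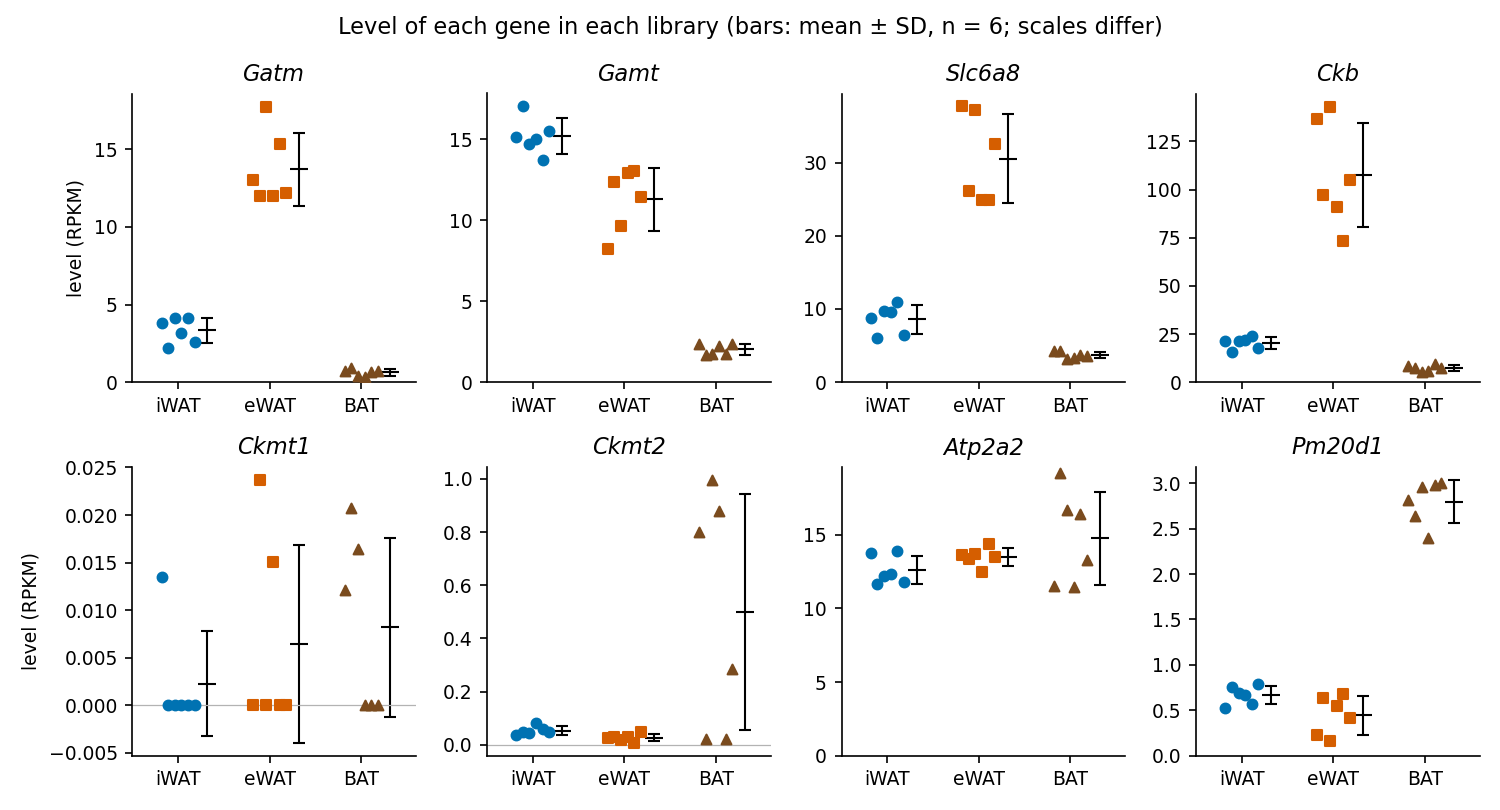
Level in RPKM (vertical axis, linear, scale differing between panels) of each of the 8 genes in each library of iWAT adipocytes (circles), eWAT adipocytes (squares) and BAT (triangles); bars show mean ± SD of 6 libraries. Gatm, Slc6a8 and Ckb are highest in eWAT adipocytes, Pm20d1 is highest in BAT, and Ckmt2 splits the BAT libraries into 2 near the white depots and 4 above them.

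In iWAT adipocytes the order by mean RPKM was *Ckb*, *Gamt*, *Atp2a2*, *Slc6a8*, *Gatm*, *Pm20d1*, *Ckmt2* and *Ckmt1*. There *Ckb* overlapped with *Gamt* and *Gamt* with *Atp2a2* in their sample ranges, while the next neighbours were separate. In eWAT adipocytes *Slc6a8* and *Gatm* moved up behind *Ckb*, and *Gatm*, *Atp2a2* and *Gamt* were neighbours whose ranges overlapped, as did those of *Ckmt2* and *Ckmt1*. In BAT *Atp2a2* led with 14.8 ± 3.16 RPKM (SD, n = 6), ahead of *Ckb*, *Slc6a8*, *Pm20d1*, *Gamt*, *Gatm*, *Ckmt2* and *Ckmt1*, and only the last 3 had overlapping neighbours. These orders rest on the row lengths of the tables. The row of *Ckb* spans its introns as 1 exon of 2984 bases where the GENCODE exons hold 1478, and that of *Atp2a2* holds 12356 bases against 5674. Where the added bases hold few reads, this lowers both levels relative to genes whose rows match the exons. Reads in the added bases were not measured. The rows of *Ckmt2* and *Pm20d1* were also longer than the annotated exons, by 2.57 and 1.46 times. The *Gamt* row reaches upstream of its annotated start into *Dazap1* on the opposite strand, named here for its position. The mean level of *Dazap1* was 7.44 RPKM in BAT, 8.02 in iWAT and 8.97 in eWAT adipocytes. Whether the counting used strand is not given in the sources used here.

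Differences were tested on the read counts with edgeR's quasi-likelihood test, adjusted over all genes tested. Between iWAT and eWAT adipocytes, 4 of the 6 genes tested were called, 1 higher in iWAT and 3 higher in eWAT adipocytes. *Ckmt1* and *Ckmt2* had too few reads to be tested. Of all 19623 genes tested, 68.6% were called, 34.1% higher in iWAT and 34.5% higher in eWAT adipocytes, so 4 of 6 is near the background. The log2 fold change of *Ckb*, iWAT over eWAT adipocytes, was -2.40 ± 0.16 (SE; edgeR, adjusted p = 1.8e-07). *Gatm* differed by -2.04 ± 0.15 (edgeR adjusted p = 3.4e-07) and *Slc6a8* by -1.83 ± 0.15 (edgeR adjusted p = 6.8e-07). *Gamt* went the other way by 0.44 ± 0.12 (edgeR adjusted p = 0.0046), or 0.28 without the eWAT libraries of mice 1 and 3. The difference of *Pm20d1* was 0.59 with a 95% interval from -0.05 to 1.24 (edgeR adjusted p = 0.093), and 0.22 without those libraries. It passed the threshold in a fit of all 18 libraries together (edgeR adjusted p = 0.047). That of *Atp2a2* was -0.09 with an interval from -0.21 to 0.02 (edgeR adjusted p = 0.14), and it passed without TMM scaling (-0.17, edgeR adjusted p = 0.043).

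Both white depots were spread over lanes 1 and 2, so each lane gave its own comparison. On lane 1, with 2 iWAT and 4 eWAT libraries, the log2 ratio of mean TMM-scaled levels was -2.18 for *Ckb*, -1.80 for *Gatm* and -1.55 for *Slc6a8*. On lane 2, with 4 iWAT and 2 eWAT libraries, it was -2.52, -1.98 and -2.01 for the same genes. *Gamt* gave 0.36 and 0.74, *Atp2a2* -0.0060 and -0.037, and *Pm20d1* 0.31 and 1.20. For *Ckb*, *Gatm*, *Slc6a8* and *Gamt* the depots did not overlap on either lane, for *Pm20d1* they overlapped on lane 1 only, and for *Atp2a2* they overlapped on both lanes. *Ckmt2* did not overlap on either lane, from 1 to 10 reads per library. With 2 libraries of a depot on a lane, ranges separate easily. The share of all genes that separate on a lane is not given here, and 68.6% of all genes were called between these depots.

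Against BAT, 7 of 7 genes tested were called in iWAT adipocytes, 4 higher there and 3 higher in BAT, of which *Ckmt2* passed the filter on low counts only through the BAT libraries. Of all 19745 genes, 75.3% were called, 38.1% higher in iWAT adipocytes and 37.2% higher in BAT. Without *Ckmt2*, 6 of 6 were called, 4 higher in iWAT adipocytes and 2 higher in BAT. The log2 fold change of *Gamt*, iWAT adipocytes over BAT, was 2.31 ± 0.12 (SE; edgeR, adjusted p = 1.6e-10), and *Gatm* was higher in iWAT adipocytes by 1.78 ± 0.20 (edgeR adjusted p = 8.0e-07). *Ckb* was higher by 0.88 ± 0.12 (edgeR adjusted p = 6.0e-06) and *Slc6a8* by 0.59 ± 0.12 (edgeR adjusted p = 0.00036). *Pm20d1* was lower in iWAT adipocytes than in BAT by -2.68 ± 0.12 (edgeR adjusted p = 1.6e-11) and *Atp2a2* by -0.83 ± 0.11 (edgeR adjusted p = 3.4e-06).

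In eWAT adipocytes, 7 of 7 genes tested were again called against BAT, or 6 of 6 without *Ckmt2*, which here too passed the filter only through BAT; of the 6, 4 were higher in eWAT adipocytes and 2 higher in BAT, where 82.5% of all 20076 genes were called, 41.1% higher in eWAT adipocytes and 41.4% higher in BAT. *Gatm* was higher in eWAT adipocytes by 3.84 ± 0.18 on the log2 scale (SE, edgeR adjusted p = 2.7e-11), *Ckb* by 3.30 ± 0.18 (edgeR adjusted p = 1.2e-10), *Slc6a8* by 2.45 ± 0.13 (edgeR adjusted p = 6.9e-11) and *Gamt* by 1.89 ± 0.15 (edgeR adjusted p = 1.0e-08). *Pm20d1* was lower than in BAT by -3.25 ± 0.26 (edgeR adjusted p = 1.7e-08), and *Atp2a2* by -0.71 ± 0.11 (edgeR adjusted p = 2.5e-05). These 2 comparisons share the BAT libraries, and each of them shares its white libraries with the comparison of the white depots.

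The difference of *Atp2a2* from BAT depended on the scaling. Without TMM the fitted log2 fold changes were 0.02 for iWAT and 0.19 for eWAT adipocytes, neither of which passed the test. That choice also moved the median over all tested genes from 0.014 to 0.87 in iWAT adipocytes and from -0.017 to 0.89 in eWAT adipocytes, and it changed the split of calls to 13703 higher in iWAT adipocytes against 3054 higher in BAT, and 12965 against 4061 for eWAT adipocytes. With TMM the splits were 7528 against 7336 and 8243 against 8318. Relative to the median gene, *Atp2a2* stood at -0.85 in iWAT and -0.70 in eWAT adipocytes under either scaling. Leaving out TMM moves all genes by nearly the same amount, so this match is built in and is no separate test. On log2(RPKM + 0.1) with limma, its difference was -0.20 in iWAT and -0.10 in eWAT adipocytes and did not pass (limma adjusted p = 0.17 and 0.47). The median gene there stood at 0.54 and 0.48, and *Atp2a2* lay at -0.74 and -0.59 relative to it.

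**Figure D2:**
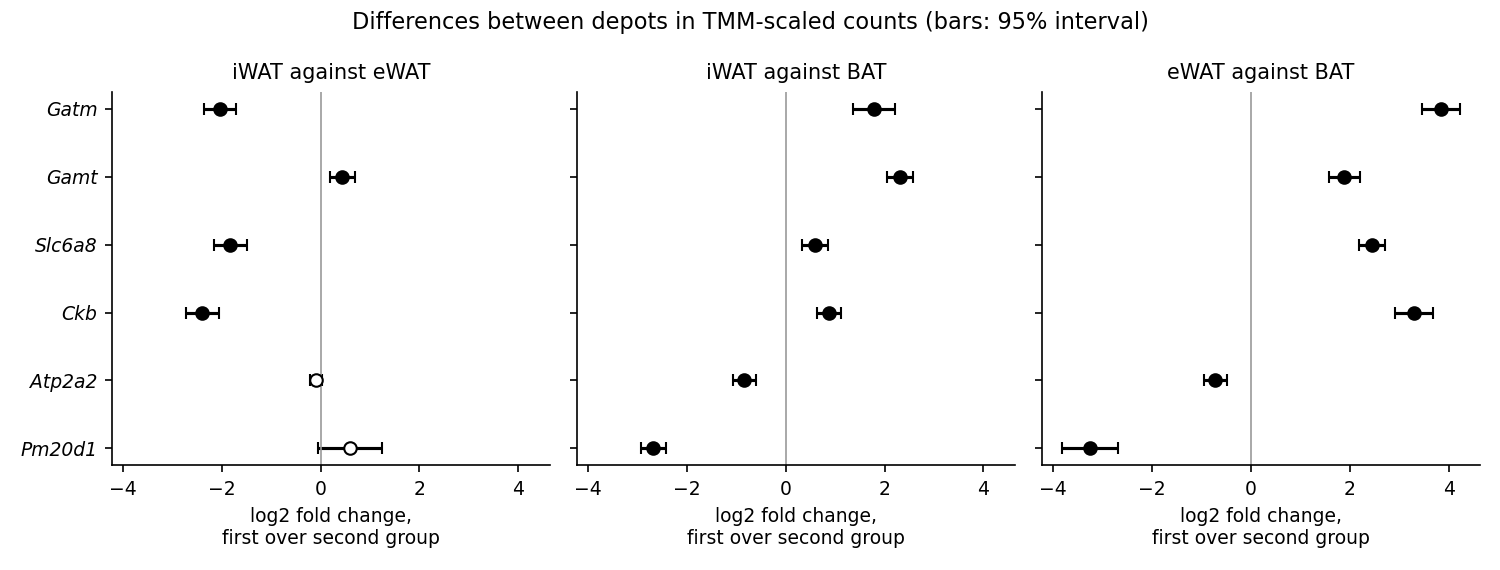
Log2 fold change (horizontal axis, first over second group, TMM-scaled counts) of the 6 genes that had enough reads in both groups of every comparison, with 95% intervals; filled points passed an adjusted p of 0.05 and open points did not. Ckb, Gatm and Slc6a8 are lower in iWAT than in eWAT adipocytes and higher in both than in BAT, and Pm20d1 is lower in both than in BAT.

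In the white depots, *Gatm*, *Slc6a8* and *Ckb* were high where macrophage markers were high. All 6 macrophage markers were called higher in eWAT than in iWAT adipocytes, where 34.5% of all genes were. All 6 were also higher than in BAT in both white depots, where 38.1% (iWAT) and 41.1% (eWAT) of all genes were. *Cd68* averaged 140 ± 32.8 RPKM in iWAT adipocytes (SD, n = 6), 567 ± 93.3 in eWAT adipocytes and 3.11 ± 0.813 in BAT. Per 100 RPKM of *Cd68*, a ratio chosen after the values were seen, *Gatm* ran from 2.04 to 3.30 RPKM in iWAT and from 1.91 to 2.84 in eWAT adipocytes, and *Slc6a8* ran from 5.28 to 7.61 and from 4.60 to 5.96, so that both overlapped between the white depots. *Ckb* per 100 RPKM of *Cd68* ran from 11.6 to 18.8 in iWAT and from 13.6 to 21.2 in eWAT adipocytes, which also overlapped. In BAT the same ratios were far higher, at 12.7 to 32.3 for *Gatm*, 87.9 to 192 for *Slc6a8* and 161 to 381 for *Ckb*. The part of macrophage RNA in these levels was not tested. Without the eWAT libraries of mice 1 and 3, which had the most *Cd68*, *Ckb* differed between iWAT and eWAT adipocytes by -2.18, *Gatm* by -1.96 and *Slc6a8* by -1.67 on the log2 scale, and all 3 still passed.

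*Gamt* and *Pm20d1* went with adipocyte markers within eWAT. The libraries of mice 1 and 3, lowest in *Adipoq*, were also lowest in *Pm20d1*, with 0.229 and 0.161 RPKM, and in *Gamt*, with 8.24 and 9.64 RPKM. The 6 adipocyte markers summed to 11337 to 15926 RPKM in iWAT and 2521 to 7856 in eWAT adipocytes. All 6 were called higher in iWAT adipocytes, where 34.1% of all genes were. Per 1000 RPKM of *Adipoq*, *Pm20d1* ran from 0.487 to 0.681 RPKM in iWAT adipocytes, from 0.954 to 1.52 in eWAT adipocytes and from 11.1 to 15.8 in BAT, with no overlap. *Gamt* per 1000 RPKM of *Adipoq* ran from 12.0 to 16.3 RPKM in iWAT and from 22.3 to 64.3 in eWAT adipocytes, so relative to this marker eWAT adipocytes lay above iWAT adipocytes, the reverse of the order in RPKM, and BAT had 6.45 to 12.4. Per 100 RPKM of *Plin1*, *Gamt* had 0.732 to 1.32 RPKM in BAT, 3.71 to 4.95 in iWAT and 7.23 to 19.1 in eWAT adipocytes. *Pm20d1* per 1000 RPKM of *Plin1*, a coat protein of the lipid droplet, kept the order it had relative to *Adipoq*. BAT was highest with 11.3 to 16.4 RPKM, the eWAT libraries followed with 3.10 to 5.56, and the iWAT libraries were lowest with 1.48 to 2.06. These ratios were chosen after the values were seen, and the part of adipocyte content in the levels was not tested.

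**Figure D3:**
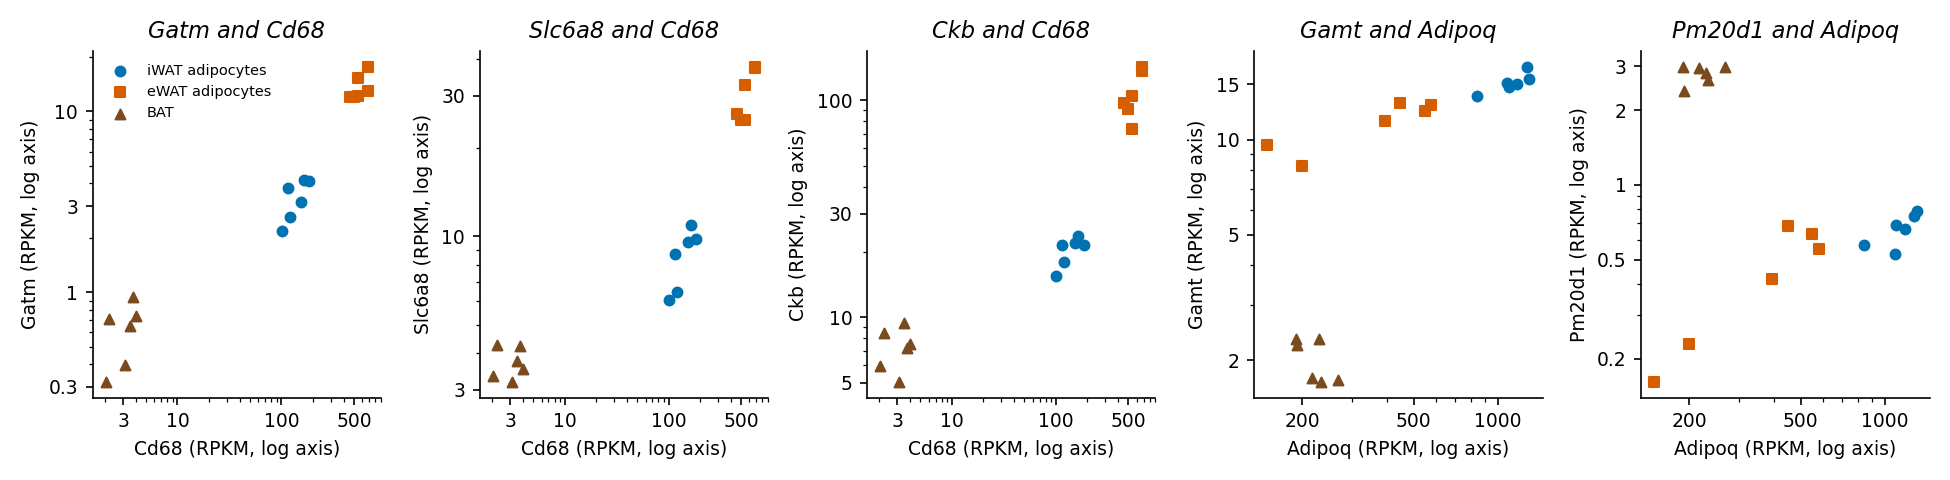
Level of Gatm, Slc6a8 and Ckb (vertical axes, RPKM, log) against the macrophage marker Cd68, and of Gamt and Pm20d1 against the adipocyte marker Adipoq (horizontal axes, RPKM, log), 1 point per library. Gatm, Slc6a8 and Ckb are higher in the libraries with more Cd68 across the white depots, while BAT has 2.04 to 4.01 RPKM of Cd68 and its own level of each gene.

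In BAT, *Ckmt2* was high in the libraries in which muscle transcripts were high. The muscle creatine kinase *Ckm* was 21.5, 0.220, 24.2, 17.4, 3.79 and 16.4 RPKM in BAT of mice 1, 2, 5, 16, 17 and 18. The fast-twitch calcium pump *Atp2a1* was 16.6, 0.186, 21.6, 15.5, 2.91 and 10.9 RPKM in the same order. The 8 skeletal muscle markers summed to 74.3, 1.47, 96.9, 68.3, 14.7 and 50.8 RPKM, so mice 2 and 17 were lowest for each of these measures and for *Ckmt2*. In the white depots the markers summed to 4.26 to 14.9 RPKM in iWAT and 1.61 to 5.23 in eWAT adipocytes. Because *Ckmt2* passed the filter on low counts only through BAT, no test of its difference is given. Without the 4 BAT libraries with *Acta1* above 20 RPKM, *Ckmt2* no longer had enough reads to be tested. The other 6 genes kept their direction and their call without those libraries. The part of muscle RNA in the level of *Ckmt2* was not tested beyond this.

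*Atp2a2* did not go with the muscle transcripts. Its level in BAT of mice 2 and 17 was 19.2 and 16.4 RPKM, and in the other 4 mice 11.5 to 16.7. Without the 4 libraries, its log2 fold change was -1.04 for iWAT adipocytes against BAT and -0.94 for eWAT adipocytes against BAT. *Ckb* was 7.21 and 9.46 RPKM in mice 2 and 17 and between 5.03 and 8.45 in the other mice.

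**Figure D4:**
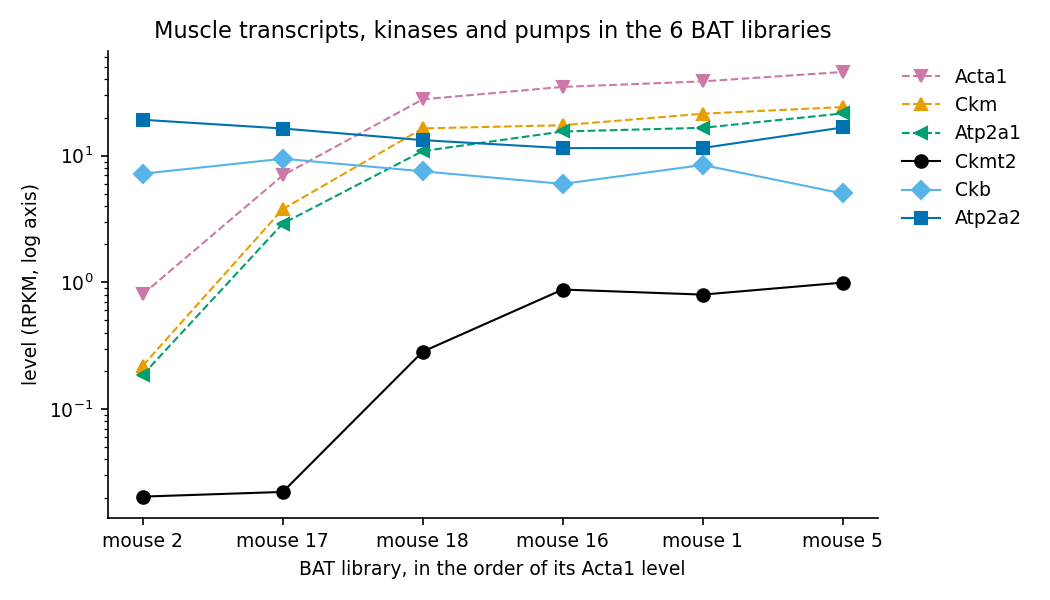
Level (vertical axis, RPKM, log) of 3 muscle transcripts (Acta1, Ckm and Atp2a1, dashed) and of Ckmt2, Ckb and Atp2a2 (solid) in the 6 BAT libraries, in the order of their Acta1 level. Ckmt2 is 0.0203 and 0.0221 RPKM in mice 2 and 17 and 0.284 to 0.995 in the other 4, while Ckb and Atp2a2 lack that rise.

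Shares of the isoforms were computed within each library, so they do not depend on the scaling between libraries. *Ckb* held 91.3% ± 5.24 of the summed RPKM of the 4 creatine kinase genes in iWAT adipocytes (SD, n = 6) and 99.9% ± 0.024 in eWAT adipocytes. In BAT it held 96.5% in mouse 2 and 71.3% in mouse 17 but 16.6% to 31.0% in the other 4 mice, where *Ckm* held 67.8% to 80.0%. *Ckm* also held 9.61% to 12.7% in iWAT adipocytes of mice 1 to 4 and 0.972% and 2.82% in mice 5 and 16. *Ckmt2* reached at most 3.62% in any library. The creatine kinase genes together summed to 21.7 ± 9.40 RPKM in BAT (SD, n = 6), 22.3 ± 3.27 in iWAT and 108 ± 27.1 in eWAT adipocytes. In BAT the sum was 7.47 in mouse 2 and 13.3 in mouse 17 but 24.2 to 30.7 in the other 4 mice, and in eWAT adipocytes it was 91.7 ± 13.4 without mice 1 and 3 (SD, n = 4).

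Among the SERCA pumps, iWAT adipocytes divided their RPKM almost evenly between *Atp2a2*, 46.6% ± 3.59 (SD, n = 6), and *Atp2a3*, the pump of many blood and secretory cells, 50.5% ± 2.84. In eWAT adipocytes *Atp2a2* held 73.0% ± 7.44 and *Atp2a3* 26.8% ± 7.44. *Atp2a3* held 17.5% and 17.8% in eWAT adipocytes of mice 1 and 3 and 29.6% to 35.6% in the other 4. The shares did not overlap between the white depots. In BAT *Atp2a3* held 3.93% to 11.7%, and *Atp2a1* held 0.846% in mouse 2, 13.5% in mouse 17 and 40.7% to 54.6% in the other 4 mice, with *Atp2a2* at 87.5% and 76.1% in mice 2 and 17. By read counts, which do not correct for row length, *Atp2a2* held 67.4%, 86.2% and 77.9% on average in iWAT adipocytes, eWAT adipocytes and BAT. *Atp2a3* was higher in iWAT than in eWAT adipocytes by a log2 fold change of 1.44 ± 0.21 (edgeR adjusted p = 5.3e-05), or 1.15 without eWAT mice 1 and 3.

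**Figure D5:**
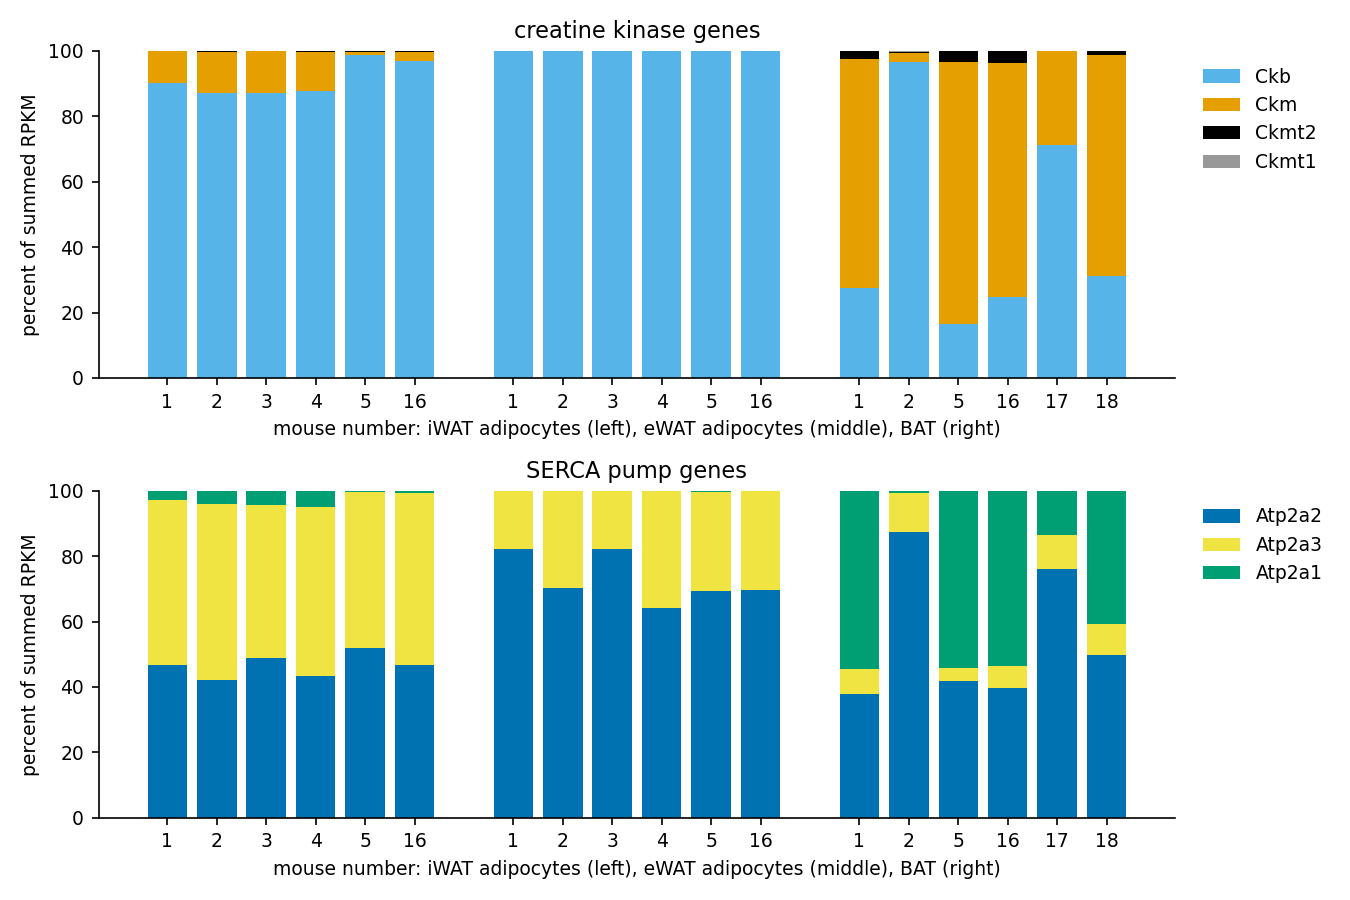
Percent of the summed RPKM held by each creatine kinase gene (top) and each SERCA pump gene (bottom), stacked to 100 for each library, with the mouse number on the horizontal axis and the groups from left to right iWAT adipocytes, eWAT adipocytes and BAT. Ckb fills nearly all of every eWAT bar, and Ckm and Atp2a1 take large shares of the BAT bars of mice 1, 5, 16 and 18.

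Of 8 other genes of creatine handling and mitochondrial nucleotide exchange, 3 were called higher in iWAT and 2 higher in eWAT adipocytes, where 68.6% of all genes were called, with a median log2 fold change of 0.052 against 0.0014 over all genes. Against BAT, 1 was called higher and 7 lower in iWAT adipocytes, where 75.3% of all genes were called, with a median of -0.96 against 0.014. In eWAT adipocytes 1 was called higher and 6 lower than in BAT, where 82.5% of all genes were called, with a median of -0.93 against -0.017. Without TMM the split against BAT was 2 higher and 3 lower in iWAT adipocytes and 3 higher and 3 lower in eWAT adipocytes. In that setting 13703 of all 19745 genes were called higher and 3054 lower in iWAT adipocytes. For eWAT adipocytes 12965 of 20076 were called higher and 4061 lower. The list medians there were -0.11 in iWAT and -0.020 in eWAT adipocytes, against 0.87 and 0.89 over all genes. *Ckm* passed the filter on low counts only through 1 group in both comparisons with eWAT adipocytes. Without it, 2 of 7 were higher in iWAT and 2 higher in eWAT adipocytes. For eWAT adipocytes against BAT, 1 of 7 was then higher and 5 lower, with a median of -0.85. *Alpl*, tissue-nonspecific alkaline phosphatase, which can dephosphorylate phosphocreatine, was lower than in BAT by -2.02 ± 0.29 in iWAT and by -3.96 ± 0.18 in eWAT adipocytes on the log2 scale (edgeR adjusted p = 1.3e-05 and 1.7e-11), and higher in iWAT than in eWAT adipocytes by 1.97 ± 0.38 (edgeR adjusted p = 0.00046). *Slc6a6*, the taurine transporter, had 92.9 ± 14.4 RPKM in eWAT adipocytes (SD, n = 6). *Slc25a4* and *Slc25a5* exchange ADP and ATP across the inner mitochondrial membrane, with 95.3 ± 10.5 RPKM of *Slc25a4* in BAT and 67.8 ± 4.81 RPKM of *Slc25a5* in iWAT adipocytes. Of the outer membrane channels, *Vdac1* had 73.7 ± 7.69 RPKM in BAT and *Vdac2* 66.7 ± 6.98 in eWAT adipocytes.

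Of 23 other calcium cycling genes, 19 were tested between the white depots, and 9 were called higher in iWAT and 8 higher in eWAT adipocytes, with a median log2 fold change of 0.32 against 0.0014 over all genes, of which 68.6% were called. Against BAT, 21 were tested, with 7 called higher and 12 lower in iWAT adipocytes (median -0.56, all genes 0.014 and 75.3% called) and 8 higher and 11 lower in eWAT adipocytes (median -0.90, all genes -0.017 and 82.5% called). Some of these genes passed the filter on low counts only through 1 group. Among those with a mean of at least 10 reads in both groups, 8 were higher and 8 lower of 18 between the white depots, 6 higher and 10 lower of 18 in iWAT adipocytes against BAT, and 7 higher and 8 lower of 17 in eWAT adipocytes against BAT, where the median was -0.16. Of the 21 tested without TMM, 11 were higher and 7 lower than in BAT for iWAT and 10 higher and 8 lower for eWAT adipocytes. All genes then gave 13703 higher and 3054 lower of 19745 for iWAT, and 12965 higher and 4061 lower of 20076 for eWAT adipocytes. Without the 4 BAT libraries rich in *Acta1*, 20 were tested, with 6 higher and 8 lower for iWAT and 8 and 8 for eWAT adipocytes. All genes in this setting gave 6552 higher and 6359 lower of 19809 for iWAT, and 7438 higher and 7514 lower of 20166 for eWAT adipocytes. *Calr*, the calcium-binding chaperone of the endoplasmic reticulum, was the most abundant of them, with 43.0 ± 4.90 RPKM in BAT, 140 ± 11.2 in iWAT and 235 ± 17.4 in eWAT adipocytes (SD, n = 6 each).

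The calcium pumps of the cell membrane named here differed in opposite directions between the white depots. *Atp2b4* had 21.5 ± 1.70 RPKM in iWAT and 7.01 ± 2.69 in eWAT adipocytes (SD, n = 6 each), which differ by 1.63 ± 0.24 on the log2 scale (SE; edgeR, adjusted p = 5.9e-05), or 1.30 without eWAT mice 1 and 3. *Atp2b1* had 5.80 ± 1.14 RPKM in iWAT and 13.3 ± 1.12 in eWAT adipocytes, which differ by -1.20 ± 0.10 on that scale (edgeR adjusted p = 7.3e-07). In BAT they had 1.97 ± 0.492 and 1.54 ± 0.188 RPKM. *Casq2*, a calsequestrin that binds calcium inside the store, was higher in iWAT than in eWAT adipocytes by 2.61 ± 0.42 (edgeR adjusted p = 0.00013), from 8 to 12 reads per eWAT library. *Hrc*, a calcium-binding protein of the sarcoplasmic reticulum, had 2 to 11 reads per library in iWAT and 2 to 4 in eWAT adipocytes and passed the filter only through BAT, so no test is given. In BAT it had 0.0639 RPKM in mouse 2, 0.266 in mouse 17 and 0.843 to 1.58 in the other 4 mice, which were those with high muscle transcripts. Of the SERCA inhibitors, *Sln* had 3 reads in BAT, 2 in iWAT adipocytes and 0 in eWAT adipocytes over all 6 libraries of each group. *Pln* had 18 to 50 reads per library in BAT and 2 to 7 in each white depot, and it too passed the filter only through BAT. Its level was 0.297 to 0.587 RPKM in BAT, 0.0259 to 0.0954 in iWAT and 0.0238 to 0.0686 in eWAT adipocytes, and in BAT of mice 2 and 17 it was 0.523 and 0.432, within the range of the other 4 mice.

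Of 4 other genes in a list drawn up for N-acyl amino acids, 3 were tested. Whether *Aacs*, acetoacetyl-CoA synthetase, acts on such acids was not tested, and its place here rests on the list alone. All 3 were called higher in iWAT than in eWAT adipocytes, where 34.1% of all genes were, and lower than in BAT in both white depots, where 37.2% and 41.4% were. *Pm20d2* is a relative of *Pm20d1*, and *Acy1* is an aminoacylase. Without TMM their log2 fold changes in iWAT adipocytes against BAT were 0.49 (edgeR adjusted p = 0.0059) and 0.24 (edgeR adjusted p = 0.24). With TMM they were -0.36 and -0.61. The median over all genes was 0.87 without TMM and 0.014 with it, so both genes lay below the median gene in each setting. Without the 4 BAT libraries rich in *Acta1*, 1 of the 3, *Aacs*, was called lower in iWAT adipocytes, as were 6359 of all 19809 genes. *Aacs* was lower than in BAT by -1.72 ± 0.23 in iWAT and by -2.65 ± 0.24 in eWAT adipocytes (edgeR adjusted p = 5.0e-06 and 5.7e-08). *Pm20d2* was higher in iWAT than in eWAT adipocytes by 1.92 ± 0.34 (edgeR adjusted p = 0.00024).

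Likeness to each gene was measured as Pearson's r of log2(RPKM + 0.1) over the 18 libraries among 12545 genes, with r after removing the group means in parentheses. The points share 3 groups, so r mainly follows the order of the group means. *Gatm* was most like *Ctsh*, a lysosomal protease, at 0.996 (0.912), *C1qc*, a complement subunit made by macrophages, at 0.996 (0.887), and *Slc15a4*, a lysosomal histidine transporter, at 0.995 (0.871). *Ckb* was most like *C77080* at 0.995 (0.864), *Tpra1* at 0.994 (0.907) and *Plxna1* at 0.994 (0.898). *Slc6a8* shared *C77080* at 0.995 (0.883) and was followed by *Gpsm3* and *Gmip*, both at 0.994 (0.891 and 0.849). *Gamt* was most like *LOC100502870* at 0.995 (0.788), *Unc119* at 0.993 (0.854) and *H2-K1*, a class I histocompatibility gene, at 0.992 (0.644).

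*Pm20d1* was most like *Fasn*, fatty acid synthase, at 0.987 (0.878), *Gpam*, the first acyltransferase of triglyceride synthesis, at 0.984 (0.883), and *Adrb3*, the β3-adrenergic receptor, at 0.984 (0.902). *Ckmt2* was most like *Rabep2* at 0.951 (0.916), *Tcap*, a sarcomere protein, at 0.923 (0.868) and *Tpm2*, a tropomyosin, at 0.910 (0.826). *Atp2a2* had the weakest likeness, to *Rreb1* at 0.866 (0.878), *Arfgef2* at 0.853 (0.832) and *Rab12* at 0.853 (0.825). Among the 8 genes, *Ckb* and *Slc6a8* were most alike at 0.993 (0.817), whereas *Gatm* and *Gamt*, the consecutive enzymes of creatine synthesis, had 0.773 (-0.266).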

How the data were processed

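RNA-seq libraries of 18 samples in 3 groups were analysed. According to the submitters' processing notes, adapters were trimmed with cutadapt 1.16 and reads were aligned to mm9 with HISAT2 2.1.0, and the authors deposited, for each gene row, a read count and an RPKM value. The counting program, annotation and strand setting are not given in the sources used here.

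The deposited counts and RPKM values were taken for 1 row per symbol. Differences were fitted for 2 groups at a time with edgeR 4.0.16 in R 4.3.3 (TMM scaling, quasi-likelihood test, mean count of at least 10, Benjamini-Hochberg adjustment over all genes tested, 2-sided, threshold 0.05). Standard errors are the fold change over the root of the F statistic. Named genes were all 8 members and the 3 genes most like each. Of the creatine, calcium and N-acyl lists, the 2 genes with the highest mean RPKM in each group and the 2 most changed past the threshold in each comparison were named, with the isoforms and SERCA inhibitors *Ckm*, *Atp2a1*, *Atp2a3*, *Sln* and *Pln*. Marker lists are given by their sums, with a few genes named from them by the same rule, and the ratios were chosen after the values were seen. The members and lists were chosen with earlier results of these data known. Where nothing says that libraries came from separate extractions, p-values measure the spread between these libraries. List genes that the tables carry under another symbol were matched by Entrez ID. DESeq2 1.42.0 and limma 3.58.1 (on RPKM) served as alternatives, as did other scalings, filters, a lane term, a block for mouse number and leaving out libraries. Python 3.11.15 was used for the rest. Depth was 24655056 to 42518483 reads, and precision is limited by counting error mainly for *Ckmt1* and *Ckmt2*.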

Additional observations from a re-analysis of the deposited data

Results flagged for a closer look

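Among 45 sets of 6 libraries examined for a single value far from the others, 3 stood apart, where chance gives about 2.25 (1 in 20). All 3 concern *Ckmt1*, with 0 to 2 reads in any library. Its level in iWAT adipocytes was 0.0135 RPKM in mouse 1, which is 1 read, and 0 in the other 5 libraries, and its share of the creatine kinase RPKM was 0.0567% there and 0 in the others. In BAT its share was 0.278% in mouse 2, against at most 0.0542% in the other 5 libraries. These values are at the limit of counting.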

How the results depend on the processing

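The number of the 8 genes called was 4 of 6 between the white depots and 7 of 7 for each white depot against BAT (6 of 6 without *Ckmt2*, which passed the filter through BAT alone), and it stayed within 1.5 times of that under all but 1 of the alternatives run. With an absolute log2 fold change of at least 1 added to the threshold, 4 of 7 genes were called for iWAT adipocytes against BAT. They were *Gamt*, *Gatm*, *Pm20d1* and *Ckmt2*, of which *Ckmt2* is in this count only because it passed the filter through BAT. The share of all genes passing that stricter threshold is not given here, so the count cannot be set against a background. Without scaling beyond the total count, *Atp2a2* reversed to 0.020 for iWAT and 0.19 for eWAT adipocytes against BAT and lost its call. The medians over all genes there were 0.87 and 0.89. In limma on RPKM *Atp2a2* also lost its call. Of the 191 refitted fold changes, 183 kept direction and call. The 191 include the refits of *Ckmt2* against BAT, a gene that passed the filter through BAT alone. Leaving out the BAT libraries rich in *Acta1* or the eWAT libraries poor in *Adipoq* was chosen after seeing the data. With mouse number as a replicate block, *Slc6a8* for iWAT adipocytes against BAT was 0.42 (edgeR adjusted p = 0.048) and no call changed; same-numbered libraries of the white depots had deviations correlating between -0.30 and 0.52 (mean -0.0024), so the numbers did not visibly pair the libraries there. The shares of *Atp2a2* depend on whether row length is used. Depth limits *Ckmt1*, *Ckmt2*, *Sln*, *Pln* and *Hrc*, and also *Ryr3* and *Faah*, which are named after their values were seen because they had too few reads for any test.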
